A study of Mus musculus with 16 samples.

Results

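Axon guidance ligands and receptors steer growing axons by attraction and repulsion, and 45 genes with such symbols were measured here out of 8251 genes with a named probe set. Members were taken by symbol, from probe sets annotated with exactly 1 gene whose symbol begins like that of an Eph receptor, ephrin, semaphorin, plexin, neuropilin, Slit, Robo, netrin, Unc5 receptor or Dcc. They were covered by 58 probe sets, and where a gene had several, the one brightest on average over the 16 arrays stands for it. Unc50 met the letters of the rule through its symbol but encodes no netrin receptor, so it was kept out of the groups below, which leaves 44 guidance genes, 25 of them ligands and 19 receptors. No gene of the Slit ligands and no Nrp2 probe set met the rule, and they are not analysed here.

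The arrays held RNA of adult mouse retina, run 5 times at the first site and 3 times at a site labelled site 2, and RNA of mouse cortex from postnatal day 1, run 5 and 3 times likewise. The retina RNA came from a pool of 350 C57/B6 mice. The cortex RNA came from a pool of 19 mice, called Swiss-Webster by the design text and C57/B6 by the samples' own descriptions. The labels name no mutation, transgene or treatment in any group, and those of site 2 give no pool size. Organ, age and possibly strain changed together between the groups and cannot be told apart, and every array of a tissue held an aliquot of pooled RNA, so the p-values measure the spread between arrays and not between animals. In bulk tissue, fewer cells of a type and less RNA per cell cannot be told apart.

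Guidance systems pair a cue with a receptor on the growth cone. Ephrins are membrane-bound and signal through Eph receptor tyrosine kinases, with the A class anchored by a lipid tail and the B class spanning the membrane; in the visual system their gradients map retinal ganglion cell axons onto their targets. Semaphorins act mostly through plexins, and most secreted class 3 semaphorins need a neuropilin as the binding partner of the plexin. Slits repel axons through Robo receptors, whereas netrin attracts through Dcc and repels where an Unc5 receptor is present. Newborn cortex is still laying down its callosal, thalamic and corticospinal connections, while the adult retina has completed its wiring.

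Values are scaled intensities in arbitrary units, with each array's median set to 100, and differences are retina minus cortex of log2(scaled intensity + 16), which understates the change of dim genes. A gene was called where the Benjamini-Hochberg adjusted p of limma's moderated test, over 12422 probe sets, was under 0.05. Intensities of different genes come from different probes and are not compared. Background on each array was the highest of 13 control probe sets with no added target, which lay between 12.6 and 37.0 on the scaled axis. On all 16 arrays 31 of the 44 guidance genes exceeded it, and Efna5 and Epha2 did so on no array.

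The labelled tissues carried their own markers. All 12 measured rod photoreceptor markers were called higher in retina at both sites. Their summed scaled intensities were 58970 to 69654 in first-site retina against 1806 to 3016 in cortex. Site 2 sums were 44506 to 56238 in retina against 288 to 366 in cortex. In first-site cortex 7 of the 12 lay at or under background on every array. Gnb1, which is also used outside rods, stood at 2332 ± 479 there and at 7405 ± 1412 in first-site retina (SD, n = 5 for both). The same probe set read far lower at site 2, where cortex averaged 153 ± 49.1 and retina 504 ± 80.0 (SD over 3 arrays). What lowered Gnb1 at site 2 was not tested. All 4 measured cortical projection neuron markers and all 7 immature neuron markers, Dcx and Stmn1 among them, were called lower in retina at both sites. Mueller glia markers were higher in retina for 6 of 7 at each site, ganglion cell markers for 6 of 7 (first site) and 5 of 7 (site 2), lens and pigment epithelium markers for 7 of 8, while erythroid markers were lower for 3 of 4 and 4 of 4. Neural progenitor markers were mixed, with 3 of 8 higher in retina and 4 lower at each site. Microglia markers were lower for 5 and 3 of 10, and oligodendrocyte markers for 2 of 6 at each site, with 0 higher in either list. The part of these cells in the results below was not tested. Cortex replicate 2 of site 2 stood apart from its group: it correlated with the other arrays of its group at 0.955 to 0.958, where other pairs within groups reached 0.981 to 0.992, and its deposited median of 45.7 was the lowest, with the others between 88.45 and 216. Site 2 counts of called genes are therefore also given without it, as are the differences whose call it changed.

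At the first site, 5 of the 44 guidance genes were called higher in adult retina, 29 were called lower and 10 were not called. Across all genes measured, 25.8% were called higher and 28.5% lower, and 48.0% of all probe sets were called in either direction. The median difference was -0.65 over the guidance genes and -0.02 over all genes. At site 2, 4 guidance genes were higher in retina, 21 were lower and 19 were not called, against 19.9% of all genes called higher and 17.4% called lower (32.5% of all probe sets in either direction), and the medians were -0.78 over the guidance genes and -0.03 over all genes. Without cortex replicate 2, the site 2 counts were 4 higher and 30 lower, beside 26.5% and 22.3% of all genes. The plot of members called by group sets these counts beside those of all genes.

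**Figure D1:**
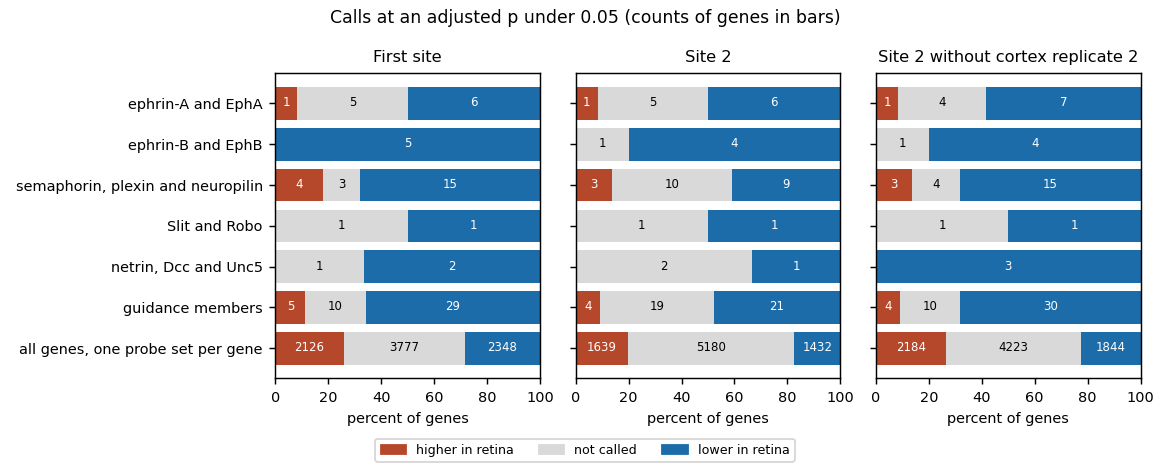
Percentage of genes called higher in retina, called lower in retina or not called (x axis, percent; numbers in the bars are gene counts) for the guidance genes, their ligand-receptor systems and all genes, at the first site and at site 2. Lower calls hold 29 of the 44 guidance genes at the first site, against 28.5% of all genes.

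Both sites gave 4 genes higher in retina (Sema3f, Sema3b, Sema4d and Epha8) and 19 genes lower, where 16.9% and 15.6% of all genes were called in the same direction at both sites. Without cortex replicate 2 these counts were 4 and 27, beside 21.3% and 19.6% of all genes. No guidance gene was called in opposite directions. The sign of the difference was the same at both sites for 43 of 44 genes, with Sema6a the exception; the design text describes the RNA of both sites as aliquots of the same pools. Of the 11 genes called at the first site and not at site 2, 8 were called at site 2 without cortex replicate 2, and Ephb3, Sema3e and Plxnb2 were not. The second probe set of Plxnb2 was called lower at the first site (-0.62) and not at site 2 (-0.17). Without cortex replicate 2 that probe set was called lower at site 2 (-0.61, adjusted p = 0.003). Efna4 and Sema5a were called at site 2 and not at the first site, and 8 genes were called at neither: Efna1, Efna5, Epha2, Epha6, Robo3, Dcc, Sema4b and Sema6a. Of the other probe sets of Sema4b, 1 was called lower at the first site (-0.45, adjusted p = 0.017). At site 2 it was not called (-1.66, adjusted p = 0.059), or was lower without cortex replicate 2 (-0.94, adjusted p = 0.0027). The remaining probe set of Sema4b was called at neither site. The plot of differences by gene shows both sites side by side.

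**Figure D2:**
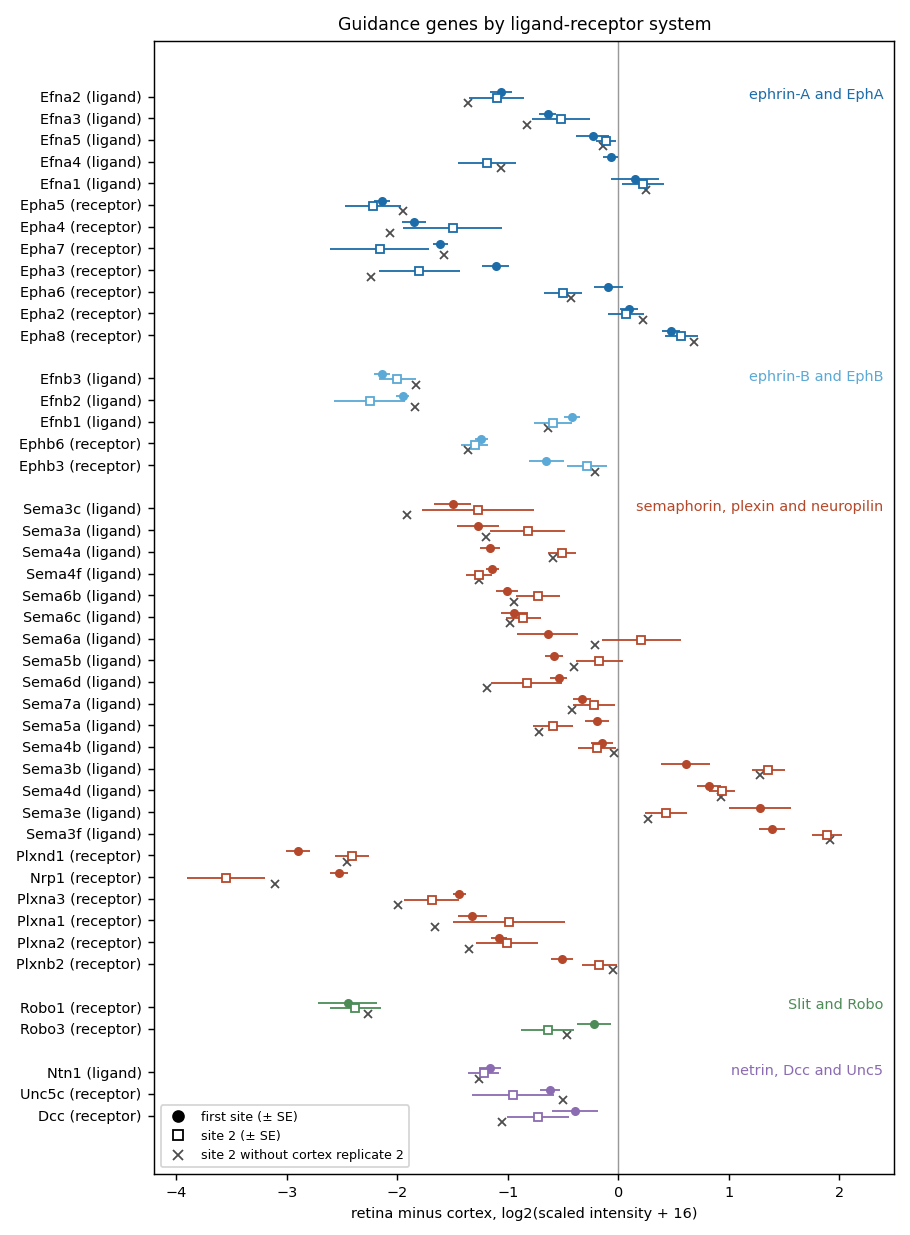
Retina minus cortex of log2(scaled intensity + 16) for each guidance gene, grouped by system (x axis, log2 units). Circles are the first site and open squares site 2, with bars of 1 SE, and crosses are site 2 without cortex replicate 2; most genes lie left of 0, from -2.90 for Plxnd1 at the first site, while Sema3f reached 1.39.

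Among receptors, 1 of 19 was higher and 14 were lower in retina at the first site, with a median of -1.11. Among ligands, 4 of 25 were higher and 15 lower, with a median of -0.58. At site 2, receptors had 1 higher and 10 lower (median -1.01), and ligands had 3 higher and 11 lower (median -0.59); without cortex replicate 2, 13 receptors (median -1.36) and 17 ligands (median -0.72) were lower. Whether receptors and ligands differed was not tested.

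In the ephrin-A and EphA system, 1 of 12 genes was higher in retina and 6 were lower at each site; the lower ones at the first site were Efna2, Efna3, Epha3, Epha4, Epha5 and Epha7. Medians were -0.44 at the first site and -0.81 at site 2. The 7 receptors held 4 of the lower calls at each site, and without cortex replicate 2 the system had 1 higher and 7 lower at site 2 (median -0.95).

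Epha5, a receptor for A ephrins that is graded across the retina during mapping of its axons in mouse, had the largest difference of the EphA receptors at the first site. Its scaled intensities were 73.1, 80.7, 77.1, 67.0 and 77.3 in first-site retina, against 378, 389, 366, 395 and 402 in first-site cortex. At site 2 they were 46.8, 44.5 and 51.9 in retina, against 250, 419 and 211 in cortex. Every retina array lay below every cortex array at both sites, and the difference was -2.14 ± 0.07 (SE; adjusted p = 4.4e-11) at the first site and -2.22 ± 0.25 (adjusted p = 0.00057) at site 2, or -1.95 without cortex replicate 2. A weaker probe set of Epha5 was also called lower at the first site (-0.83) and was not called at site 2 (-0.63), or was called lower there without cortex replicate 2 (-0.89, adjusted p = 0.0084).

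Epha4, unusual in binding ephrins of both classes and needed for the wiring of the corticospinal tract, read 73.2, 52.6, 82.8, 74.9 and 76.3 in first-site retina, against 270, 313, 298, 347 and 270 in cortex. Site 2 gave 114, 108 and 108 in retina, against 604, 146 and 434 in cortex, where replicate 2 was by far the lowest. Retina was below cortex on all arrays at both sites. The difference was -1.85 ± 0.11 (adjusted p = 1.3e-08) at the first site and -1.50 ± 0.45 (adjusted p = 0.04) at site 2, or -2.07 (adjusted p = 2.7e-05) without cortex replicate 2. The second probe set of Epha4 was near or under background, above it on 1 array of each retina group and on 1 and 2 cortex arrays of the first site and site 2; it was called at neither site (-0.01 and -0.18), and at site 2 without cortex replicate 2 it was called lower (-0.49, adjusted p = 0.043). The site 2 call of Epha4 was lost when any site 2 array but cortex replicate 2 was left out (adjusted p 0.095 to 0.11).

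Epha7, a receptor that takes part in mapping between cortex and thalamus, read 124, 114, 117, 120 and 110 in first-site retina, against 368, 423, 370, 392 and 397 in cortex. In site 2 retina it read 110, 117 and 111, against 334, 1270 and 404 in cortex. Here the replicate that stood apart was the highest of the cortex arrays, and the groups did not overlap at either site. The difference was -1.61 ± 0.07 (adjusted p = 3.4e-10) at the first site and -2.16 ± 0.45 (adjusted p = 0.0094) at site 2, or -1.58 without that array. Epha3 was lower in retina by -1.11 ± 0.12 at the first site and -1.80 ± 0.37 at site 2, or -2.24 without that array.

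Epha8 was the EphA receptor called higher in retina. It averaged 227 ± 14.8 (SD, n = 5) in first-site retina and 158 ± 12.5 (SD, n = 5) in cortex, and 284 ± 9.03 in site 2 retina and 189 ± 32.2 in cortex (SD, n = 3 each). The differences of 0.48 ± 0.08 (adjusted p = 0.00014) and 0.57 ± 0.15 (adjusted p = 0.023) were small, and the site 2 call was lost when any array other than cortex replicate 2 was left out. Epha6, a paralogue graded across the retina in development, was not called (-0.09 and -0.50). Of the A ephrins, which act as repellents in retinal mapping, Efna2 was lower at both sites (-1.06 and -1.10) and Efna3 at the first site (-0.64; at site 2 -0.52, adjusted p = 0.18, or -0.83 without cortex replicate 2). Efna5 lay at or under background on all arrays, so these arrays give no level for it.

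At the first site all 5 genes of the ephrin-B and EphB system were lower in retina, and at site 2 4 of them were, with medians of -1.24 and -1.30. Without cortex replicate 2 the site 2 count stayed at 4 lower (median -1.36). Efnb2 and Efnb3, transmembrane ligands that can also signal back into their own cell, had the largest differences.

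Efnb3, known as a midline barrier to corticospinal axons, had scaled intensities of 427, 393, 378, 436 and 376 in first-site retina, against 1963, 1962, 1724, 1837 and 1675 in cortex. The site 2 arrays gave 487, 463 and 506 in retina, against 1738, 2504 and 1788 in cortex. The groups were far apart at both sites, by -2.14 ± 0.07 (adjusted p = 1.8e-11) and -2.0 ± 0.17 (adjusted p = 0.00014). Its second probe set was called lower at both sites as well (-1.32 and -1.81).

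Efnb2, a ligand of EphB receptors and Epha4 that also marks arterial endothelium, gave 264, 284, 262, 273 and 241 in first-site retina, against 1055, 1056, 1030, 1087 and 1115 in cortex. Site 2 values were 253, 265 and 280 in retina, against 1031, 2356 and 951 in cortex. Apart from cortex replicate 2, the arrays of each tissue were within a narrow range across both sites. The differences were -1.95 ± 0.06 (adjusted p = 9.2e-12) at the first site and -2.25 ± 0.32 (adjusted p = 0.0018) at site 2, or -1.84 without that array.

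Ephb6, an Eph receptor whose kinase domain is catalytically inactive, read 217, 213, 229, 238 and 214 in first-site retina, against 553, 550, 504, 543 and 585 in cortex. The site 2 values were 222, 224 and 252 in retina, against 592, 542 and 653 in cortex. All arrays separated by tissue, and the differences were -1.24 ± 0.06 (adjusted p = 1.4e-09) and -1.30 ± 0.12 (adjusted p = 0.00024). Its second probe set was called at neither site (-0.19 and -0.51). Efnb1 was lower by -0.42 and -0.59, and Ephb3 by -0.65 at the first site, with -0.28 and no call at site 2.

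**Figure D3:**
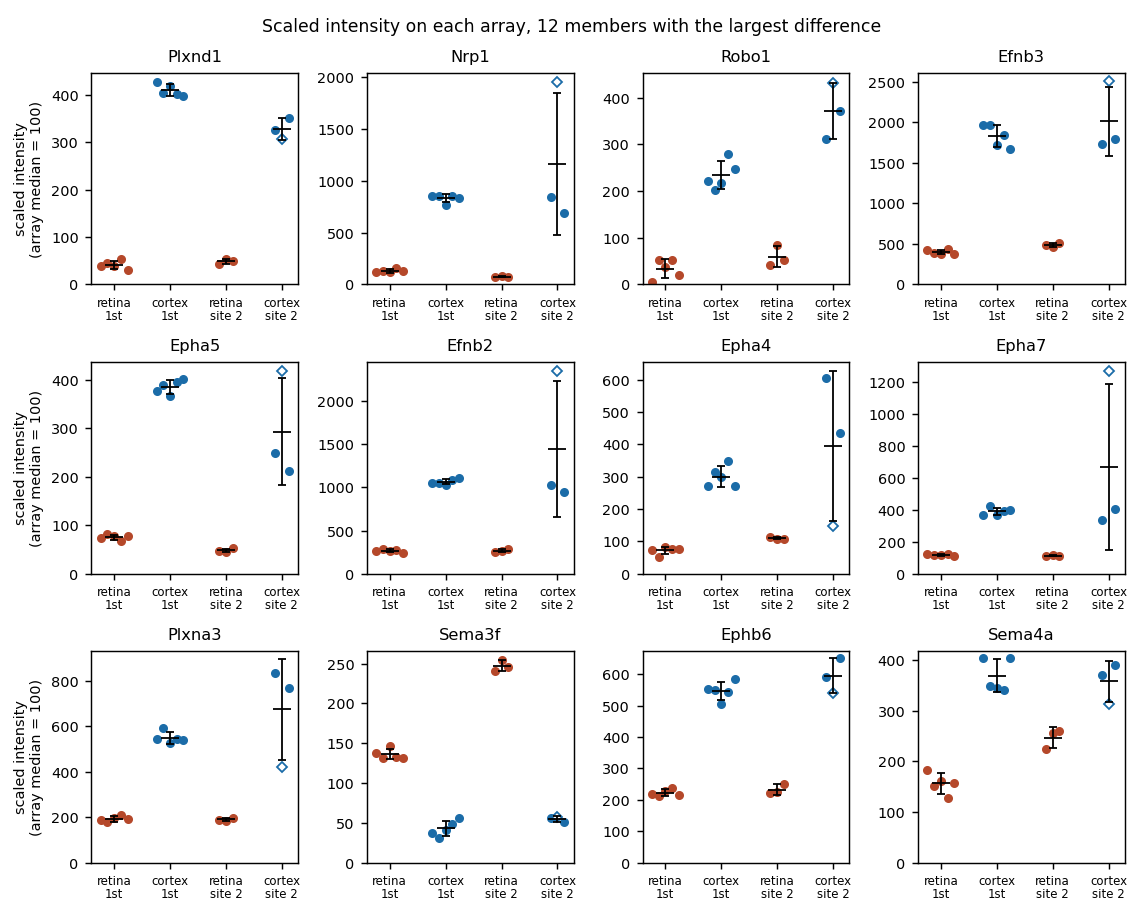
Scaled intensity of the 12 guidance genes with the largest first-site differences among those called in the same direction at both sites, 1 panel per gene (y axis, linear scale, array median 100). Points are single arrays, retina in red left of cortex in blue at each site, black marks are mean ± SD and the open diamond is cortex replicate 2 of site 2. Sema3f is higher in retina and the other 11 genes are lower, with no overlap between tissues at either site.

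The semaphorins, plexins and neuropilins formed the largest system, with 22 genes. At the first site 4 were higher and 15 lower in retina (median -0.79), and at site 2 3 were higher and 9 lower (median -0.66), or 3 and 15 without cortex replicate 2. All 6 receptors, namely 5 plexins and Nrp1, were lower at the first site; at site 2 4 were lower, or 5 without cortex replicate 2, and Plxna1 and Plxnb2 were not called with it. The 16 ligands were split, with 4 higher and 9 lower at the first site, and 3 higher and 5 lower at site 2, or 3 and 10 without cortex replicate 2.

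Plxnd1, the plexin that binds Sema3e directly and acts in blood vessels as well as in axons, had the largest difference of all guidance genes at the first site. It read 38.4, 46.0, 38.8, 53.6 and 30.8 in first-site retina, against 427, 405, 418, 402 and 398 in cortex. Site 2 gave 42.2, 54.1 and 49.5 in retina, against 325, 306 and 352 in cortex. Cortex replicate 2 was close to its group here, and the tissues were well separated. The difference was -2.90 ± 0.11 (adjusted p = 8.7e-11) at the first site, which is 7.47-fold on the scale with 16 added, and -2.41 ± 0.15 (adjusted p = 3.8e-05) at site 2.

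Nrp1, the neuropilin that binds Sema3a and also VEGF, read 116, 128, 123, 160 and 132 in first-site retina, against 852, 852, 763, 856 and 831 in cortex. Site 2 arrays read 75.2, 77.7 and 70.6 in retina, against 845, 1946 and 692 in cortex. Retina lay below cortex on every array, and the second probe set was also called lower at both sites (-2.31 and -2.53). The difference was -2.53 ± 0.08 (adjusted p = 2.1e-11) at the first site and -3.55 ± 0.35 (adjusted p = 0.00031) at site 2, or -3.11 without cortex replicate 2.

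Plxnd1, Nrp1 and Efnb2 are also made by blood vessels. Of 9 measured endothelial markers, 2 were higher in retina (Kdr and Flt1, receptors for VEGF) and 6 were lower at each site, among them Cldn5, a tight junction protein, by -1.92 ± 0.10 and -1.40 ± 0.20. Summed endothelial intensities were 1110 to 1337 in first-site retina against 1625 to 1807 in cortex, and 1178 to 1353 in site 2 retina against 1832 to 1890 in cortex; Tie1 was at or under background in first-site retina. Meningeal and mural cell markers were measured for 9 genes, of which the first site had 7 lower in retina and site 2 had 5, with sums of 1033 to 1375 in retina against 2051 to 2207 in cortex, and 755 to 799 against 1738 to 2401; Foxc1 was at background in all groups and Col3a1 in first-site retina. The part of these cells in the differences of Plxnd1, Nrp1 and Efnb2 was not tested.

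Plxna3, a plexin that signals for secreted semaphorins together with neuropilins, read 185, 177, 198, 210 and 190 in first-site retina, against 542, 591, 526, 542 and 537 in cortex. In site 2 retina it read 188, 183 and 198, against 834, 421 and 767 in cortex. Retina values nearly coincided at both sites, and the tissue difference was -1.44 ± 0.06 (adjusted p = 4.9e-10) at the first site and -1.69 ± 0.25 (adjusted p = 0.0019) at site 2. Plxna1 and Plxna2 were lower by -1.32 and -1.08 at the first site. Plxna2 was also lower at site 2 (-1.01), a call lost without any 1 array there but cortex replicate 2, while Plxna1 was not called there (-0.99, adjusted p = 0.19) and was at -1.66 (adjusted p = 1.9e-05) without cortex replicate 2, in which it read 78.1 against a mean of 361 on the other 2 arrays.

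Sema3f, a secreted semaphorin best known as a ligand of Nrp2, was the lead gene that was higher in retina. It had 138, 132, 146, 133 and 132 in first-site retina, against 37.7, 31.2, 41.3, 48.4 and 55.5 in cortex. Site 2 gave 241, 255 and 246 in retina, against 56.2, 57.8 and 50.8 in cortex. The tissues did not overlap at either site, and in first-site cortex 4 of 5 arrays exceeded background. The difference was 1.39 ± 0.12 (adjusted p = 5.9e-07) at the first site and 1.89 ± 0.14 (adjusted p = 7.9e-05) at site 2.

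Class 3 was the semaphorin class with most higher calls, with 3 of 5 genes higher in retina at the first site (Sema3b, Sema3e and Sema3f) and the other 2 lower (Sema3a and Sema3c). Sema3a, the repellent first known as collapsin, averaged 16.1 ± 8.57 (SD, n = 5) in first-site retina and 60.0 ± 13.5 (SD, n = 5) in cortex, a difference of -1.27 ± 0.19. Sema3c was at or under background on all first-site retina arrays and was at least 1.87-fold lower in retina (fitted adjusted p = 7.7e-06), the retina arrays averaging 5.88 ± 1.08 and the cortex arrays 47.8 ± 16.9 (SD, n = 5 each). Neither was called at site 2 (Sema3a -0.82, Sema3c -1.27), and both were lower there without cortex replicate 2 (-1.20 and -1.91).

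Sema3e, the ligand of Plxnd1, was singled out after its values were seen, because it went the other way from its receptor at the first site. It read 323, 261, 178, 225 and 243 in first-site retina, against 39.9, 82.1, 67.0, 159 and 155 in cortex. At site 2 it read 179, 170 and 162 in retina, against 122, 94.3 and 157 in cortex. Retina exceeded cortex on all arrays at each site, but the cortex arrays were widely spread at the first site. The difference was 1.28 ± 0.28 (adjusted p = 0.0019) there and 0.43 ± 0.19 (adjusted p = 0.13) at site 2.

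Sema3b was near the limit of these arrays. It read 10.5, 13.1, 32.1, 13.1 and 48.5 in first-site retina, against 9.23, 9.84, 8.91, 6.09 and 7.70 in cortex, where no array exceeded background. Its site 2 values were 47.6, 39.6 and 51.0 in retina, against 8.05, 5.69 and 10.8 in cortex. The first-site difference of 0.61 ± 0.22 (adjusted p = 0.034) was no longer called when retina replicate 3 or 5, or cortex replicate 1, 3, 4 or 5, was left out (adjusted p 0.052 to 0.084). At site 2 it was at least 2.54-fold higher in retina (fitted adjusted p = 0.00057).

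Among the membrane-bound semaphorins, Sema4d, which acts through plexin B1, was higher in retina. It read 439, 386, 401, 417 and 399 in first-site retina, against 198, 173, 239, 248 and 279 in cortex, and 298, 273 and 301 in site 2 retina, against 136, 141 and 154 in cortex. The groups did not overlap, with differences of 0.82 ± 0.11 (adjusted p = 2.4e-05) and 0.94 ± 0.12 (adjusted p = 0.0011). Sema4f, by contrast, was lower in retina by -1.14 and -1.26.

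**Figure D4:**
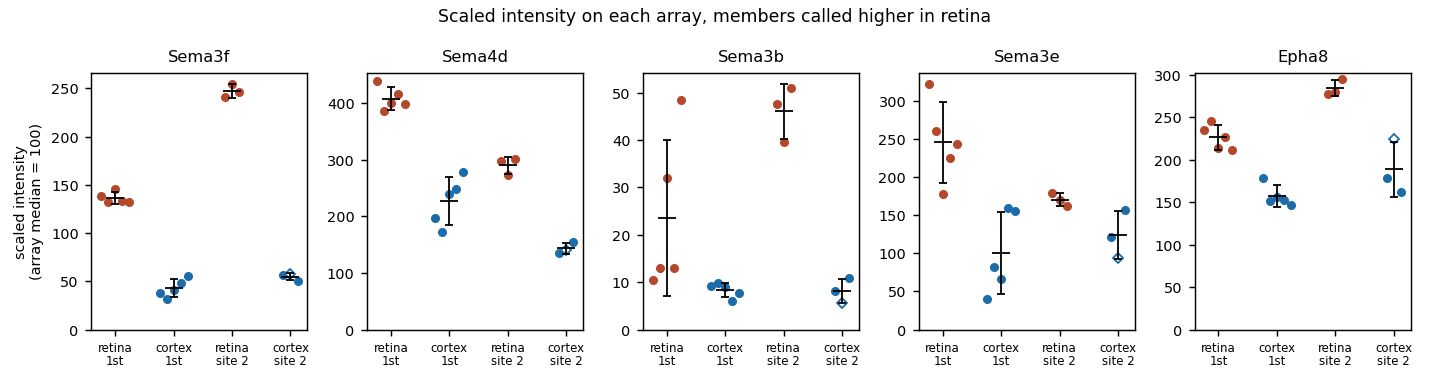
Scaled intensity of the guidance genes called higher in retina at 1 or both sites, 1 panel per gene (y axis, linear scale, array median 100), with retina in red left of cortex in blue. Points are arrays, black marks are mean ± SD and the open diamond is cortex replicate 2 of site 2. Retina arrays lie above cortex arrays at each site for every gene shown. Sema3b is at or under background on all cortex arrays, and Sema3e in first-site cortex spreads over 39.9 to 159.

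Sema4a, a semaphorin whose loss leads to photoreceptor degeneration in mice, read 183, 151, 162, 128 and 158 in first-site retina, against 405, 350, 345, 341 and 405 in cortex. At site 2 it read 224, 257 and 261 in retina, against 370, 314 and 391 in cortex. Retina was lower on all arrays at both sites, and the retina arrays of site 2 were all above those of the first site. The difference was -1.16 ± 0.09 (adjusted p = 1.9e-07) at the first site and -0.51 ± 0.13 (adjusted p = 0.024) at site 2, and its second probe set was also called lower at both sites (-0.69 and -0.42). The site 2 call was lost when any array of site 2 other than cortex replicate 2 was left out (adjusted p 0.061 to 0.088).

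Of the class 6 semaphorins, which bind A plexins, 3 of 4 were lower in retina at the first site: Sema6b (-1.01), Sema6c (-0.94) and Sema6d (-0.54). Sema6b and Sema6c were lower at site 2 too (-0.73 and -0.86), though the call of Sema6b was lost without any 1 array but cortex replicate 2 (adjusted p 0.074 to 0.092). Sema6d was not called at site 2 (-0.83, adjusted p = 0.093), and was lower without cortex replicate 2 (-1.19, adjusted p = 0.0015). Sema6a read -0.64 (adjusted p = 0.087) at the first site, where cortex replicate 3 was at 23.9 and the other 4 cortex arrays at 79.3 to 96.0, and -0.91 (adjusted p = 0.0021) without that array. Sema5b (-0.58) and the lipid-anchored Sema7a (-0.33) were lower at the first site, and at site 2 without cortex replicate 2 (-0.40 and -0.42). Sema5a was lower at site 2 (-0.59), a call lost without any 1 array but cortex replicate 2.

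Slit receptors were measured by Robo1 and Robo3. Robo1 read 5.77, 52.5, 38.3, 52.0 and 19.4 in first-site retina, against 221, 203, 218, 279 and 248 in cortex. In site 2 arrays it stood at 42.0, 84.2 and 53.3 in retina, against 312, 432 and 372 in cortex. Retina arrays were scattered at low values but stayed below all cortex arrays, and the difference was -2.45 ± 0.27 (adjusted p = 5.6e-06) at the first site and -2.38 ± 0.23 (adjusted p = 0.00029) at site 2. Robo3, which lets commissural axons cross the midline, averaged 24.0 ± 3.09 in first-site retina and 31.4 ± 9.60 in cortex (SD, n = 5 each) and was called at neither site.

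Ntn1, the secreted cue netrin-1 that guides retinal axons into the optic nerve during development, read 84.5, 77.7, 87.4, 78.3 and 62.0 in first-site retina, against 187, 208, 215, 174 and 184 in cortex. At site 2 it read 92.8, 82.1 and 80.0 in retina, against 211, 207 and 239 in cortex. It was lower in retina on every array, by -1.16 ± 0.10 (adjusted p = 5.6e-07) and -1.22 ± 0.14 (adjusted p = 0.00067), and its second probe set, at or under background on all 16 arrays, gives no reading.

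Unc5c, a repulsive netrin receptor, read 152, 147, 161, 157 and 204 in first-site retina, against 233, 275, 241, 275 and 281 in cortex. Site 2 arrays gave 206, 309 and 276 in retina, against 376, 993 and 373 in cortex. The tissues did not overlap at either site. It was lower in retina at the first site (-0.62 ± 0.09, adjusted p = 9.4e-05), and the site 2 difference of -0.95 ± 0.37 was not called (adjusted p = 0.095), or was -0.50 (adjusted p = 0.037) without cortex replicate 2. Dcc, the attractive receptor, was at or under background on all retina arrays and averaged 17.9 ± 14.5 (SD, n = 5) in first-site cortex, with no call at either site; without cortex replicate 2 it was called lower at site 2 (-1.05, adjusted p = 0.0015).

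At the first site 28 guidance genes had all retina arrays below all cortex arrays and 5 had them all above, beside 23.5% and 21.0% of all genes. At site 2 the counts were 24 and 5, beside 26.3% and 26.6% of all genes. The 12 genes with more than 1 probe set had 13 further probe sets; at the first site 8 of them were called in the direction of the chosen probe set, 3 were not called where it was, 1 was called where it was not, 1 agreed in giving no call and 0 were called in the opposite direction. At site 2, 4 were called in its direction, 5 were not called where it was, 4 agreed in giving no call and 0 were opposite.

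Promoter sequence is shown for the lead genes Efnb2 and Sema4a, both lower in retina, and for Sema3e, higher in retina at the first site. Sema3e is not a lead gene and was added after its values were seen. The windows shown before the annotated start lay wholly outside the gene's annotated bounds. Each is the 250 bases before a RefSeq start on assembly GRCm38.p6, at chr8:8661243-8661492 on the minus strand for Efnb2, chr3:88461183-88461432 on the minus strand for Sema4a and chr5:14025026-14025275 on the plus strand for Sema3e, written 5′ to 3′ on the gene's strand. Capitals mark GC boxes, the letters GGGCGG or their reverse complement CCGCCC.
Efnb2: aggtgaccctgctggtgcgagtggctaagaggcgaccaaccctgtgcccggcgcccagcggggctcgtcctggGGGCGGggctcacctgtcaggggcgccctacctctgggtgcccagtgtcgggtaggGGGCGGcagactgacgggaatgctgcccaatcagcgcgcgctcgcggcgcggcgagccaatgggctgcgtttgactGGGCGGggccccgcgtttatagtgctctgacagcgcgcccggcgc
Sema4a: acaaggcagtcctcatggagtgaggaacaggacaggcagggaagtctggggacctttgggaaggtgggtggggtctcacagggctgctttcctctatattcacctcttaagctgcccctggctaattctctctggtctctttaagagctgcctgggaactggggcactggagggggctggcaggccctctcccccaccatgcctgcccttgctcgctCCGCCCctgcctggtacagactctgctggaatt
Sema3e: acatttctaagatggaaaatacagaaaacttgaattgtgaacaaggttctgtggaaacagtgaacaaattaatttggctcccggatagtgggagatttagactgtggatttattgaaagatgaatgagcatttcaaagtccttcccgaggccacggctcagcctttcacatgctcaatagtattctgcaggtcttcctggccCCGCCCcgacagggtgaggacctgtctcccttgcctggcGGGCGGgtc
Efnb2 held 3 GC boxes and 72.0% G and C, Sema4a 1 and 59.6%, and Sema3e 2 and 48.0%. The RefSeq table had windows for 37 of the 44 guidance genes, 50 windows in all, and 37 of these windows (74.0%) held a GC box on either strand, beside 42.6% of 21263 windows of protein-coding genes and 32.7% of all 32851 windows. The E-box letters CAGCTG, which read the same on both strands, were in 5 of the 50 windows (10.0%, against 12.1% of protein-coding windows), and TAATCC or its reverse complement GGATTA, the core bound by the photoreceptor homeobox factor Crx, in 1 (2.0%, against 5.82%), a window of Robo3. These matches describe letters in the windows and say nothing about binding.

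Genes that work beside the guidance receptors were read from 5 lists of other cues, coreceptors and signalling partners, of which 53 of 88 genes were measured. At the first site 4 of the 53 were higher in retina, 34 were lower and 15 were not called, and at site 2 5 were higher and 21 lower, or 6 and 29 without cortex replicate 2. All genes measured were called higher for 25.8% and lower for 28.5% at the first site, and for 19.9% and 17.4% at site 2 (26.5% and 22.3% without that array). At both sites 20 were lower and Rras and Shh were higher.

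Chl1, an L1-type adhesion molecule that acts as a semaphorin coreceptor, was at or under background on all retina arrays and was at least 60.3-fold lower in retina at the first site and at least 47.7-fold lower at site 2, the first-site retina arrays averaging 17.8 ± 5.57 and the cortex arrays 1452 ± 131 (SD, n = 5 each). Crmp1, a collapsin response mediator that carries the Sema3a signal to microtubules, averaged 956 ± 79.7 (SD, n = 5) in first-site retina and 6079 ± 505 (SD, n = 5) in cortex, a difference of -2.65 ± 0.08 there and -1.93 ± 0.22 at site 2. The kinase Fyn, which acts downstream of Eph receptors and plexins, was lower by -2.52 ± 0.09 and -2.12 ± 0.13. Rras, a small GTPase that plexins inactivate, was higher in retina by 1.19 ± 0.16 (adjusted p = 3.2e-05) and 0.99 ± 0.18 (adjusted p = 0.0048). Shh, a morphogen that also guides axons, was higher by 0.83 ± 0.28 (adjusted p = 0.025) and 1.08 ± 0.27 (adjusted p = 0.019).

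In the lists given here, lower calls outnumbered higher calls at the first site, where 28.5% of all genes were called lower and 25.8% higher. Of the 14 measured Eph signalling genes, 9 were lower and 1 higher in retina (median -0.65), and of the 8 semaphorin signalling genes 5 were lower and 1 higher (median -0.53). The Slit and netrin signalling list held 9 measured genes, of which 7 were lower and 1 was higher (median -0.72). Of 13 other cues and coreceptors, 9 were lower and 1 higher (median -0.80). At site 2 the lower and higher calls were 6 and 0 (Eph, median -0.57) and 2 and 1 (semaphorin, median -0.18). They were 5 and 0 (Slit and netrin, median -0.73) and 5 and 1 (other cues, median -0.71), beside 17.4% and 19.9% of all genes. Without cortex replicate 2 they were 8 and 0, 3 and 1, 6 and 1, and 9 and 1 in that order, beside 22.3% and 26.5%.

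The tissue difference itself was compared between sites with an interaction test. Efna4 and Sema4a passed, which is 2 of 44 guidance genes, beside 4.84% of all genes. Efna4, a lipid-anchored ephrin, read 5.32, 13.2 and 20.6 in site 2 retina and 55.1, 60.2 and 33.5 in site 2 cortex. At the first site it read 6.99, 8.69, 6.61, 7.10 and 6.53 in retina, against 7.68, 10.3, 7.87, 6.78 and 8.94 in cortex. The 3 cortex arrays of site 2 and 1 retina array there exceeded background, and none of the first site did, so the first-site values give no measured difference. Its tissue difference was -1.19 at site 2 and -0.07 at the first site, a fitted interaction of -1.12 ± 0.22 (adjusted p = 0.0082), whose size is not a measured fold since most of these values are not above background.

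For Sema4a the tissue difference was -0.51 at site 2 and -1.16 at the first site, an interaction of 0.66 ± 0.16 (adjusted p = 0.024). Its level in retina was 0.62 ± 0.11 higher at site 2 than at the first site on the log2 scale. Its second probe set, dimmer and above background on 1 of 3 site 2 retina arrays, gave an interaction of 0.26 (adjusted p = 0.67) and a site difference in retina of -0.52 (adjusted p = 0.052), neither called. Without cortex replicate 2, 6 guidance genes passed the interaction test, beside 6.31% of all genes: Efna4 (-1.0) and Sema4a (0.57) again, and Epha3 (-1.13), Sema6d (-0.65), Nrp1 (-0.58) and Plxna3 (-0.55). The second probe set of Nrp1 gave an interaction of 0.0 without that array and was not called.

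Within retina, 10 guidance genes were higher and 7 lower at site 2 than at the first site, beside 39.9% of all genes called in either direction. Sema3f (0.79 ± 0.13), Ephb3 (0.83 ± 0.18) and Sema3b (0.74 ± 0.23) were among the higher ones, and Efnb1 (-0.86 ± 0.11) and Nrp1 (-0.70 ± 0.22) among the lower. The second probe sets of Sema3b (-0.10) and Nrp1 (-0.11) were not called in retina. Epha5 was called lower in retina by its chosen probe set (-0.51) and higher by its weaker one (0.83). Sema7a was called higher in retina by its chosen probe set (0.39) and lower by its second (-0.86). Within cortex, Efna4 (1.41 ± 0.16), Unc5c (0.96 ± 0.24) and Epha3 (0.76 ± 0.24) were higher and Efnb1 (-0.69 ± 0.11) and Sema4d (-0.59 ± 0.12) lower at site 2, beside 20.2% of all genes. Without cortex replicate 2, 9 guidance genes were higher and 5 lower in cortex at site 2, beside 26.5% of all genes. Unc5c was then at 0.50, Epha3 at 1.21, Plxna3 at 0.53 and Epha5 at -0.71. The weaker probe set of Epha5 was then called the other way in cortex (0.88, adjusted p = 0.006). Chosen and other probe sets were then also called in opposite directions in cortex for Sema7a (0.49 and -0.96), Sema4b (-0.46 and 1.09) and Plxnb2 (-0.37 and 0.87). Efnb1 and Sema4d were thus lower at site 2 in both tissues, and their tissue differences were called at both sites.

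Cortex replicate 2 of site 2 departed from the mean of cortex replicates 1 and 3 by more than 1.5-fold, on the scale with 16 added, for 20 of the 44 guidance genes (45.5%), 5 of them above and 15 below, beside 27.2% of all genes, of which 1421 were above and 824 below. Ratios ran from 0.25 for Plxna1 to 3.34 for Epha7. Epha7, Unc5c, Nrp1, Efnb2 and Epha5 were above, and Epha4 (0.303), Epha3 (0.40), Sema3c (0.265) and Sema3a (0.446) were among those below. What sets this array apart was not tested.

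**Figure D5:**
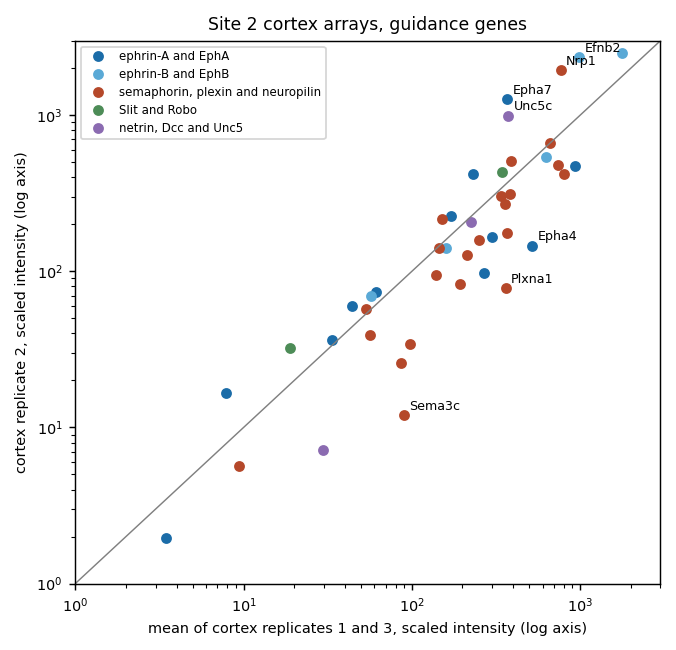
Scaled intensity of each guidance gene on cortex replicate 2 of site 2 (y axis, log scale) against the mean of cortex replicates 1 and 3 of site 2 (x axis, log scale). Points are genes and the line marks equality; Epha7, Unc5c, Nrp1 and Efnb2 lie above it, while Plxna1, Sema3c and Epha4 lie below.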

How the data were processed

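The deposited values are array intensities on a linear scale, 1 per probe set and array; how the authors summarised probes, handled background and scaled is not given in the sources used here. Per the labels' protocols, about 10 µg of total RNA extracted in TRIzol was made into biotin-labelled cRNA. The table held 12488 probe sets, of which 66 controls were left out. Of the 12422 tested, 10833 had 1 gene symbol in the platform annotation, 396 had several and 1193 are unnamed here; 10817 were found in RefSeq (GRCm38.p6). No member's symbol changed on that update.

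Each array was scaled to a median of 100, because deposited medians ran from 45.7 to 216, then 16 was added and log2 taken. Linear models were fitted over all probe sets with limma 3.58.1 in R 4.3.3 (lmFit, eBayes with an intensity trend), two-sided, with Benjamini-Hochberg adjustment at 0.05. Retina and cortex were fitted within each site (5 + 5 and 3 + 3 arrays), and the interaction and site differences over all 16 arrays. The number of arrays limits the precision. Folds written "at least" are lower bounds, used where no array of the dimmer tissue exceeded background, whose level then replaces its values. Between 68.5% and 78.8% of probe sets lay above background.

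Values per array are given for the 12 members with the largest first-site difference among those called alike at both sites, the leading 2 of each system among those called at the first site, and those passing the interaction test; all other members are given in brief. Sema3e, Sema3b and Sema4d are also given per array and were added after their values were seen. Members, lists and tests were chosen with earlier results of these data known. Alternatives were pseudocounts of 1 and 50, the pseudocount before centring, no scaling, quantile normalization, probe sets above the median signal, no intensity trend, a replicate block, all arrays in 1 fit, the mean of a gene's probe sets, and each array left out. The fitting was tested on simulated data. The counts of 1 of the 5 lists of signalling partners are not reported here on their own.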

Additional observations from a re-analysis of the deposited data

Results flagged for a closer look

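In groups of 5 arrays, 8 of 90 tested groups held an array separated from the rest by most of the group's range, where chance gives about 1 in 20. Retina replicate 2 of the first site was the one apart for Epha4 (52.6, others 73.2 to 82.8), Sema6b (103, others 84.6 to 88.0) and Efna4 (8.69, others 6.53 to 7.10, all at background). Retina replicate 5 was apart for Unc5c, at 204 with the others at 147 to 161. In first-site cortex, replicate 3 was low for Sema6a (23.9, others 79.3 to 96.0) and Nrp1 (763, others 831 to 856), replicate 1 was high for Epha8 (179, others 147 to 156) and replicate 2 was high for Plxna3 (591, others 526 to 542).

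The tissue difference differed between sites for Efna4, by -1.12, and for Sema4a, by 0.66, in the interaction test. Both passed it without cortex replicate 2 of site 2 as well (adjusted p = 0.015 and 0.037). Sema4a did not pass without retina replicate 2 or 3 of site 2 (adjusted p = 0.075 in each case).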

How the results depend on the processing

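No guidance gene changed the sign of a called tissue difference or interaction under any alternative run. This does not extend to the site differences within a tissue, where probe sets of the same gene were called in opposite directions for Epha5 and Sema7a. Without scaling, site 2 gave 781 calls against 4033, with 1 member higher and 9 lower against 4 and 21; the interaction gave 34 against 525, the site difference 290 against 4704 in retina and 79 against 2401 in cortex. Among probe sets above the median signal, which holds fewer genes, 3 members were higher at the first site. Leaving out each array in turn gave 5668 to 5944 calls at the first site (members 4 to 5 higher, 29 to 30 lower) and 2767 to 5380 at site 2 (members 3 to 4 higher, 14 to 30 lower), the highest without cortex replicate 2. The interaction ran from 274 (without retina replicate 2 of site 2; 285 without replicate 3) to 804 (without cortex replicate 1 of site 2), the site difference from 3494 to 4416 in retina and from 1820 to 3243 in cortex. Of interaction calls 65.7% were higher, against 49.0% with quantile normalization and 38.2% without scaling; for the site difference in retina the shares were 63.2%, 53.2% and 39.0%, and in cortex 60.4%, 49.4% and 65.8%. The causes were not tested.

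Same-numbered arrays of the tissues share only a number: their deviations correlated at -0.0855 to 0.0639 at the first site and at 0.0303, 0.116 and 0.0512 at site 2, where 2 of 3 retina arrays matched their own number best. With the replicate number as a block, the first site gave 5824 calls and site 2 3805. Under it Sema6a passed at the first site (adjusted p = 0.025), Robo3, Dcc and Unc5c passed at site 2, and Efnb1 and Sema5a did not.

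At site 2, the calls of Epha4, Epha8, Efnb1, Sema4a, Sema5a, Sema6b and Plxna2 were each lost without any 1 array but cortex replicate 2, and that of Efna2 without retina replicate 2 (adjusted p = 0.056). Robo3 passed there without cortex replicate 1 (-0.90, adjusted p = 0.012). Nrp1 passed the interaction without any 1 of the 3 site 2 cortex arrays (adjusted p 0.014 to 0.042, against 0.068). Its second probe set gave an interaction of -0.22 with all arrays (adjusted p = 0.71) and of 0.0 without cortex replicate 2, neither called.

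Dcc passed at the first site without cortex replicate 1 (-0.54, adjusted p = 0.038). With the pseudocount before centring Sema3b (adjusted p = 0.06) and Sema4a at site 2 (0.053) were not called, and Efna4 missed the interaction (0.076). Without scaling, Efnb1, Sema7a and Plxnb2 were not called at the first site. With the mean of its probe sets, Epha4 was not called at site 2 (-0.84, adjusted p = 0.11), and Sema4a missed the interaction (0.46, adjusted p = 0.16). Efna5, Epha2, Dcc and Sema3b lie near or under background, which limits any statement on them.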

Other observations

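Unc50, which the symbol rule caught although it encodes no netrin receptor, was higher in retina at both sites. It averaged 1340 ± 103 in first-site retina and 846 ± 56.3 in cortex (SD, n = 5 each), and 1876 ± 194 in site 2 retina and 975 ± 116 in cortex (SD, n = 3 each). The differences were 0.65 ± 0.07 (SE; adjusted p = 2.4e-06) and 0.93 ± 0.15 (adjusted p = 0.003).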
